A study of Mus musculus with 12 samples.

Results

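A set of 9 complement genes was followed through microglia and astrocytes sorted from the brains of mice given lipopolysaccharide (LPS), the bacterial cell wall component used to set off systemic inflammation. The genes were C1qa, C1qb, C1qc, C3, C4b, Cfb, Serping1, C3ar1 and C5ar1, taken by symbol from 40853 symbols in each of 2 count tables, and all 9 were found in both. Every mouse was 8 to 9 weeks old and had received 1 mg/kg LPS into the peritoneal cavity 20 h before dissection, so all groups share the stimulus, and mice without LPS were not analysed here. The 4 groups combine cell type (microglia or astrocytes) with genotype (WT or KO), where KO means a mouse labelled as lacking Kpna4, the gene of the nuclear import adaptor importin α4. Each group had 3 libraries, since both cell types were sorted from every one of 6 animals, 3 WT and 3 KO. Both cell types were separated by fluorescence-activated sorting from digested whole brain, so border and blood-derived cells could enter a gate. The sources used here do not give the strain, the sorting antibodies or the deleted stretch of Kpna4.

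Complement is a cascade of secreted proteins and their receptors. In the classical pathway C1q, a hexamer built from the products of C1qa, C1qb and C1qc, binds a surface and activates the proteases C1r and C1s, which cleave C4 and C2. The alternative pathway uses factor B, the product of Cfb, to amplify cleavage of C3, the component on which the pathways meet. C1 inhibitor, the product of Serping1, blocks C1r and C1s, while C3ar1 and C5ar1 encode the receptors of the released peptides C3a and C5a. In brain, microglia are known as the main source of C1q, C1q and C3 are known for tagging synapses that microglia remove, and C3, C4b and Serping1 are used as genes of reactive astrocytes.

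The sequences just upstream of the genes are shown because C1qb, C1qc, C3ar1 and C5ar1 on one side and C3 on the other had opposite levels in the sorted cells. Of the 9 genes, 5 had an entry in the RefSeq promoter table (build GRCm38.p6; C1qa, C4b, Cfb and Serping1 had none), and the 250 bases before each start site are given 5′ to 3′ on the gene's strand. The windows are chr4:136886201-136886450 for C1qb, chr4:136892915-136893164 for C1qc, chr17:57228137-57228386 for C3, chr6:122856158-122856407 for C3ar1 and chr7:16259339-16259588 for C5ar1, all on the minus strand. Capitals mark matches to 1 of 5 motifs searched on both strands: GAGGAA (the core bound by PU.1, the master transcription factor of microglia), TTGCNNAA (C/EBP), GAAA followed by any 2 bases and GAAA (the core of the interferon element ISRE), TTCNNNGAA (the STAT element GAS) and GGGA, any base, TT, any base and CC in a row (kappa B, bound by NF-κB).
C1qb: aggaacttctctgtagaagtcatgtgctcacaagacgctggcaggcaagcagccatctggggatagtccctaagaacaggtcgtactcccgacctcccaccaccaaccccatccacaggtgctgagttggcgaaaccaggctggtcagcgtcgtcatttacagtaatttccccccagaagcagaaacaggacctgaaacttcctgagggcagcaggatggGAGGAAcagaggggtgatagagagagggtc
C1qc: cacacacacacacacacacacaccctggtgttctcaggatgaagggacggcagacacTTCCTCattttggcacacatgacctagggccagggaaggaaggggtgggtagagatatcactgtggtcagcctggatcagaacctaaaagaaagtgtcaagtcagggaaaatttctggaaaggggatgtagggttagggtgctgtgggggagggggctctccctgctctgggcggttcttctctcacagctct
C3: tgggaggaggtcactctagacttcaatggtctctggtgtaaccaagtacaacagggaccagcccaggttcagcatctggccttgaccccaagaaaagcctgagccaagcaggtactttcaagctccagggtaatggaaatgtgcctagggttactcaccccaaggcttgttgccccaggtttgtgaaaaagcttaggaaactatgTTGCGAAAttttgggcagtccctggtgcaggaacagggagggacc
C3ar1: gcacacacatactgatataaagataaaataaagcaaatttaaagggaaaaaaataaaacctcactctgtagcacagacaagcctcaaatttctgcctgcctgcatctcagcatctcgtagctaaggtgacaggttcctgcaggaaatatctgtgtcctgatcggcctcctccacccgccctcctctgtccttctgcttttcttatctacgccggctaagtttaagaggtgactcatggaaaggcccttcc
C5ar1: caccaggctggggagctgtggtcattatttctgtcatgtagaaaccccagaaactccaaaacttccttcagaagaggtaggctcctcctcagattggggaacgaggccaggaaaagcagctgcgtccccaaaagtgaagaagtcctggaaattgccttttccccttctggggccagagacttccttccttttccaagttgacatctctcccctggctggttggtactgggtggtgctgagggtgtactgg
C1qb held the PU.1 core 30 bases before its start, C1qc held it on the other strand 193 bases before its start, and C3 held a C/EBP match 45 bases before its start. C3ar1 and C5ar1 held none of these letters in the window. Among 32851 promoters of the same length, 23.3% held the PU.1 core, 9.56% the C/EBP motif, 7.02% the GAS motif, 2.98% the ISRE core and 0.980% the kappa B motif. A match is a stretch of letters and not a measured binding site.

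Levels are given as CPM, counts scaled to a common library total. Microglia libraries held 10.3 M to 14.5 M counts, and astrocyte libraries 10.7 M to 15.6 M. Defining markers followed the labels: the summed level of 10 microglia genes was 13618 to 17246 CPM in microglia and 202 to 576 CPM in astrocytes, and that of 10 astrocyte genes was 15293 to 20361 CPM in astrocytes and 332 to 735 CPM in microglia. No marker of either list was at 0 in all 3 libraries of a group. Kpna4 was at 67.9 to 96.4 CPM in microglia WT and 59.8 to 78.6 CPM in microglia KO, and at 40.1 to 57.6 CPM in astrocytes WT and 43.8 to 80.2 CPM in astrocytes KO. These ranges overlap, and since whole-gene counts need not report a deleted stretch they do not check the genotype labels, so KO stands for the libraries labelled KO throughout.

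The first comparison asked which of the sorted cell types held each complement transcript. The C1q chains and both peptide receptors were higher in the microglia libraries, and Serping1 and C3 were higher in the astrocyte libraries. C4b lay near the same level in both, and Cfb was low in both with a higher mean in microglia. In edgeR's quasi-likelihood fit of all 12 libraries, 8 of the 9 genes passed an adjusted p of 0.05 (3 higher and 5 lower in astrocytes), where 64.6% of 17294 tested genes passed (36.4% higher and 28.2% lower). The cell types did not overlap for 7 of the 9 genes (2 higher and 5 lower in astrocytes), against 46.5% of all tested genes (21.7% higher and 24.9% lower), and all 9 had an unadjusted edgeR p under 0.05, against 67.5%. The median log2 fold change over all tested genes was 0.19. RNA was amplified from each sorted pool, so fewer cells of a type in a pool and less RNA per cell cannot be told apart.

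**Figure D1:**
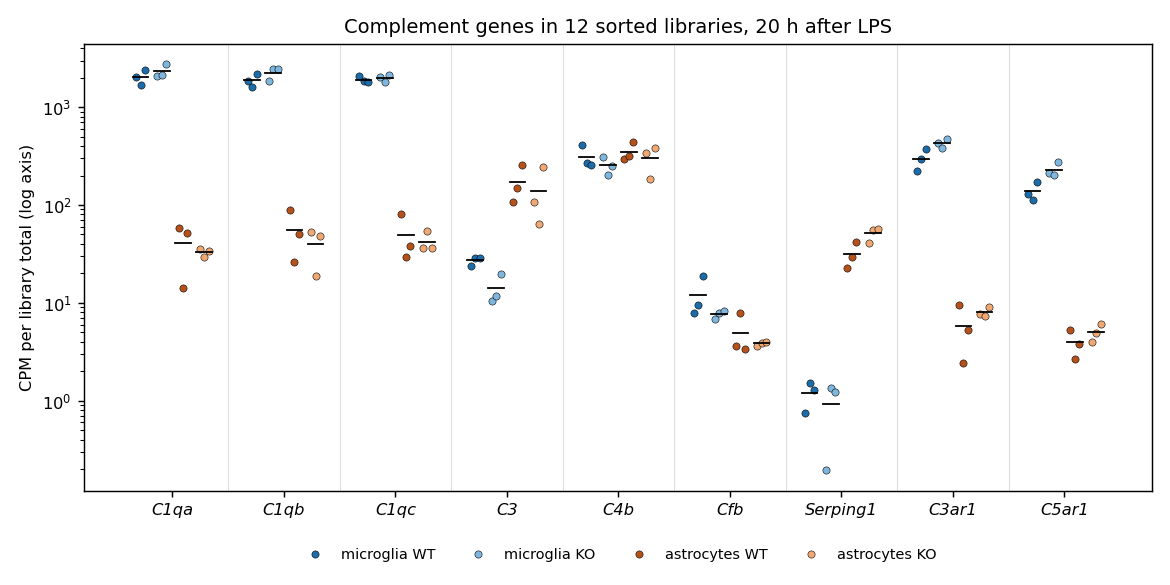
CPM per library total (log axis) of the 9 complement genes, with 1 point per library, 3 libraries a group and a bar at the group mean. The C1q chains, C3ar1 and C5ar1 lie higher in all 6 microglia libraries than in any astrocyte library, C3 and Serping1 lie lower, and the points of C4b and Cfb overlap.

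C1qa encodes the A chain of C1q. It was at 2021, 1680 and 2393 CPM in microglia WT, at 2077, 2150 and 2747 CPM in microglia KO, at 57.6, 14.2 and 51.7 CPM in astrocytes WT and at 35.5, 29.5 and 33.6 CPM in astrocytes KO. All 6 microglia libraries were far above all 6 astrocyte libraries. C1qa was 49.0-fold lower in astrocytes (log2 fold change -5.61, SE 0.31, edgeR adjusted p = 1.07e-09). C1qb, the B chain, was at 1854, 1623 and 2201 CPM in microglia WT and 1851, 2450 and 2439 CPM in microglia KO, against 88.7, 26.3 and 50.5 CPM in astrocytes WT and 52.5, 18.7 and 48.1 CPM in astrocytes KO. It was 37.1-fold lower in astrocytes (log2 fold change -5.21, SE 0.31, edgeR adjusted p = 2.11e-09). C1qc, the C chain, was the steadiest of the trio in microglia. It was at 2079, 1853 and 1815 CPM in microglia WT and 2019, 1812 and 2113 CPM in microglia KO, and at 81.7, 29.3 and 38.1 CPM in astrocytes WT and 36.5, 54.2 and 36.3 CPM in astrocytes KO. Its fold was 34.4 (log2 fold change -5.10, SE 0.29, edgeR adjusted p = 1.62e-09), also lower in astrocytes.

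The 3 chains together took 0.516% to 0.730% of all counts in a microglia library and 0.00698% to 0.0228% in an astrocyte library. Within that sum the chains were close to even in microglia, where C1qa made up 32.6% to 37.6%, C1qb 31.1% to 38.2% and C1qc 28.3% to 35.9% of the C1q counts. In astrocytes the split was looser, with C1qa at 20.4% to 36.9%, C1qb at 18.3% to 42.2% and C1qc at 27.1% to 52.9%. These shares do not correct for transcript length.

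C3ar1, the C3a receptor, was at 223, 293 and 376 CPM in microglia WT and 429, 386 and 476 CPM in microglia KO. In astrocytes the WT libraries had 9.42, 2.44 and 5.33 CPM and the KO libraries 7.65, 7.26 and 8.99 CPM. The receptor was 43.3-fold lower in astrocytes (log2 fold change -5.44, SE 0.28, edgeR adjusted p = 6.26e-10), with no overlap. C5ar1, the C5a receptor, was at 130, 114 and 172 CPM in microglia WT and 210.2, 200.9 and 277 CPM in microglia KO, and at 5.32, 2.68 and 3.83 CPM in astrocytes WT and 4.0, 4.93 and 6.04 CPM in astrocytes KO. It was 32.9-fold lower in astrocytes (log2 fold change -5.04, SE 0.23, edgeR adjusted p = 2.36e-10).

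The low astrocyte levels of these 5 genes were set beside microglia markers measured in the same animals. In the astrocyte library, as a percentage of the same animal's microglia library, the median over 6 animals was 1.54% for C1qa (0.847% to 2.85%), 2.13% for C1qb (0.764% to 4.78%), 1.95% for C1qc (1.58% to 3.93%), 1.83% for C3ar1 (0.832% to 4.23%) and 2.29% for C5ar1 (1.90% to 4.09%). The 10 microglia markers had medians of 1.31% for Trem2 to 9.26% for Sall1, with 1.70% in the middle. The 5 complement genes thus lay inside the span of the markers. Border macrophages of the brain also make C1q, and 7 of their markers summed to 180 to 391 CPM in microglia and 11.1 to 31.6 CPM in astrocytes. Whether the astrocyte counts came from microglial or macrophage RNA was not tested.

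**Figure D2:**
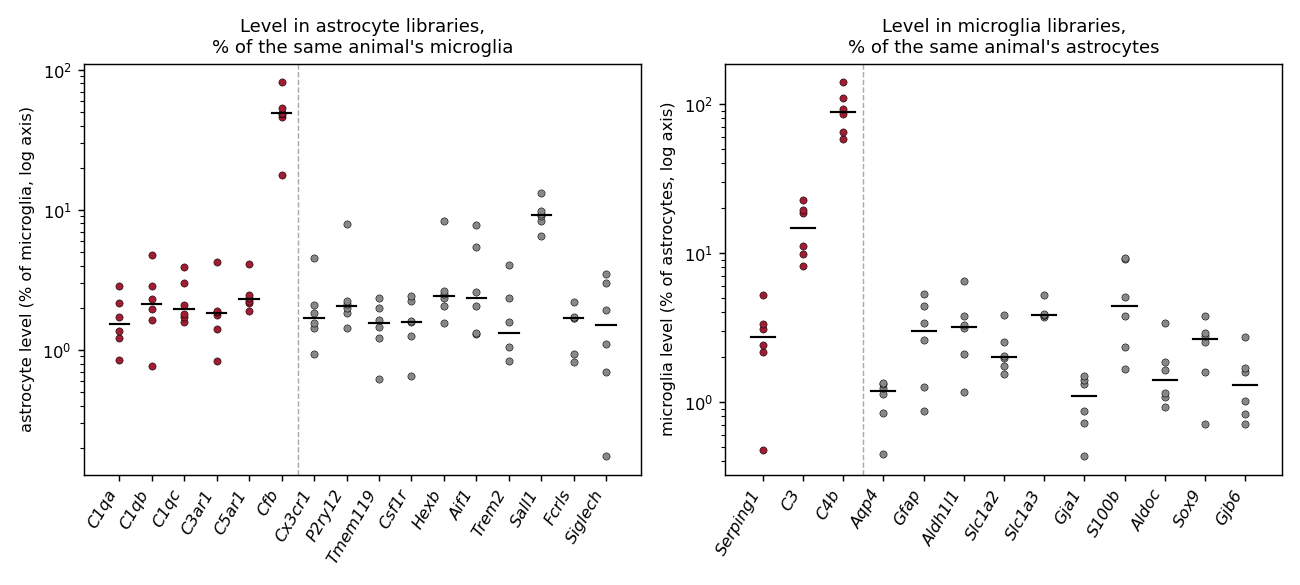
Level of each gene in 1 cell type as a percentage of the same animal's other library (log axis), astrocytes over microglia on the left and microglia over astrocytes on the right, with 1 point per animal and a bar at the median of 6 animals. Left, C1q chains and receptors (red) lie among 10 microglia markers (grey, with 1 animal with Trem2 at 0 not drawn). Cfb is higher than those markers but under 100% in all 6 animals, in CPM per library total. Right, Serping1 lies among 10 astrocyte markers, and C3 and C4b have higher medians than all 10.

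Serping1, which encodes C1 inhibitor, had the opposite pattern. It was at 22.7, 29.4 and 42.0 CPM in astrocytes WT and 41.1, 55.8 and 57.1 CPM in astrocytes KO, against 0.75, 1.53 and 1.29 CPM in microglia WT and 0.19, 1.34 and 1.24 CPM in microglia KO. The microglia values rest on 2 to 18 counts per library. Serping1 was 46.0-fold higher in astrocytes (log2 fold change 5.53, SE 0.37, edgeR adjusted p = 7.97e-09). Its level in microglia had a median of 2.74% of the same animal's astrocyte level (0.472% to 5.20%), inside the span of 10 astrocyte markers, whose medians ran from 1.09% for Gja1 to 4.41% for S100b. Serping1 is also made by fibroblasts and mural cells of the brain. Their marker sums were higher in astrocyte libraries too, at 74.3 to 129 CPM for 5 fibroblast genes against 6.13 to 16.3 CPM in microglia, and at 315 to 421 CPM for 5 mural genes against 4.36 to 28.1 CPM. The part of those cells in the Serping1 difference was not tested.

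C3, the central component, was at 106, 149 and 257 CPM in astrocytes WT and 107, 63.7 and 244 CPM in astrocytes KO. The WT microglia had 24.0, 28.9 and 28.5 CPM and the KO microglia 10.5, 11.7 and 19.9 CPM. The lowest astrocyte library was above the highest microglia library, and C3 was 9.33-fold higher in astrocytes (log2 fold change 3.22, SE 0.30, edgeR adjusted p = 2.47e-07). Microglia held a median of 14.7% of the same animal's astrocyte level of C3 (8.15% to 22.5%), where no astrocyte marker exceeded 9.24% in any animal. The fibroblast and mural sums given for Serping1 moved with this difference as well, as did 4 ependymal genes, which summed to 3.10 to 10.3 CPM in microglia and 249 to 610 CPM in astrocytes. In the astrocyte libraries, in the order of the C3 values, the ependymal sum was 282, 352 and 610 CPM for WT. For KO it was 332, 249 and 464 CPM. The sum of 7 oligodendrocyte markers was 1744, 854 and 3996 CPM for WT and 1179, 901 and 1845 CPM for KO. Replicate 3 of each genotype had the highest C3, the highest of both sums and the largest library total. The part of these cells was not tested.

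C4b, the mouse C4 gene, had similar levels in both cell types. It was at 412, 268 and 254 CPM in microglia WT, 311, 202 and 248 CPM in microglia KO, 296, 315 and 441 CPM in astrocytes WT and 338, 184 and 387 CPM in astrocytes KO. In CPM per library total, the highest microglia library was above 5 of the 6 astrocyte libraries. The lowest astrocyte library, KO 2, was below all 6 microglia libraries. That last order is not kept with edgeR's scaling (TMM) factors, of which KO 2 astrocytes had the smallest (0.720). The C4b log2 fold change of 0.46 (SE 0.19, 95% interval 0.05 to 0.87) passed with an edgeR adjusted p of 0.0462. The call was held by 7 of 15 alternative settings, whose adjusted p ran from 0.00285 to 0.560, and it ended when any animal other than WT animal 1 was left out (log2 fold changes of 0.16 to 0.34). The near-identical copy C4a took 0% to 0.626% of the counts of both genes, and since reads shared by both copies are divided by estimate, the C4b level is uncertain.

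Cfb, which encodes factor B, was low in both cell types. It was at 7.84, 9.60 and 18.9 CPM in microglia WT, 6.88, 7.95 and 8.20 CPM in microglia KO, 3.60, 7.81 and 3.35 CPM in astrocytes WT and 3.66, 3.91 and 3.98 CPM in astrocytes KO, with overlap in 1 astrocyte library. In CPM per library total, the astrocyte library was below the microglia library within each of the 6 animals, at 17.8% to 81.3% of its level (median 48.9%). The order in WT animal 2, at 81.3%, is not kept with edgeR's TMM factors (0.893 in astrocytes and 1.12 in microglia). The log2 fold change was -0.84 (SE 0.38, 95% interval -1.64 to -0.03), and Cfb missed the threshold with an edgeR adjusted p of 0.0634. It passed in 6 of 15 alternative settings, among them DESeq2 (adjusted p = 0.0346) and limma voom (adjusted p = 0.0248). A read-through gene model, Gm20547, shares exons with Cfb on the same strand in the GENCODE M21 annotation and is not a row of the tables, so reads of both cannot be told apart.

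Apart from the shares of counts given for the C1q chains and for C4a, levels of different genes were compared per kilobase of exon length. In microglia WT the order was C1qa (1953 CPM per kb), C1qb (1740), C1qc (1593), C3ar1 (69.0), C4b (57.9), C5ar1 (53.9), C3 (5.28), Cfb (4.40) and Serping1 (0.592). The C1q trio thus stood well above every other member, and neighbours overlapped between libraries within the trio, within C3ar1, C4b and C5ar1, and between C3 and Cfb. In microglia KO the order was the same at the top, with C5ar1 (89.3 CPM per kb) above C4b (47.1) and Cfb (2.79) beside C3 (2.73). In those libraries C3ar1 and C5ar1 overlapped, and C4b lay apart from C5ar1. In astrocytes WT, C4b came first (65.2 CPM per kb), followed by C1qb (50.7), C1qc (41.3), C1qa (39.6), C3 (33.3), Serping1 (15.6), Cfb (1.79), C5ar1 (1.54) and C3ar1 (1.33). Only the step from Serping1 to Cfb separated neighbouring genes there. Astrocytes KO had C4b at 56.3 CPM per kb, C1q chains at 31.6 to 36.6, C3 at 26.9 and Serping1 at 25.5, all overlapping with their neighbours, then a step down to C5ar1 (1.94), C3ar1 (1.85) and, apart from it, Cfb (1.40).

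The rest of the cascade was read from a list of 50 other complement genes, of which 30 had enough counts to be tested between cell types. In edgeR's fit 15 were higher and 9 lower in astrocytes, or 50% and 30% of those tested, where 36.4% and 28.2% of all tested genes passed in these directions. The other 6 did not pass, and the median log2 fold change was 1.32 against 0.19 over all tested genes. Regulators made up most of the astrocyte side, with 11 of 15 tested (73.3%) higher and 3 lower, while 5 of 6 tested receptors (83.3%) were lower in astrocytes and none higher. Of 7 tested classical and lectin genes, 3 were higher (Masp1, C1s1 and Colec12) and 1 lower. Astrocyte libraries also held more of some other cells' markers, besides those given above. The 7 neuron genes summed to 53.1 to 124 CPM there and 9.12 to 19.3 CPM in microglia. The 3 oligodendrocyte precursor genes summed to 14.0 to 34.4 and 1.67 to 11.1 CPM. The sums of 7 oligodendrocyte genes, 854 to 3996 and 277 to 1733 CPM, overlapped. So did those of endothelial genes (28.5 to 103 and 25.1 to 69.2 CPM) and choroid plexus genes (491 to 1097 and 355 to 2201 CPM). The part of these cells in the differences of the list was not tested.

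Clu, which encodes clusterin, an inhibitor of the membrane attack complex, was at 1815 to 2241 CPM in astrocytes and 31.1 to 147 CPM in microglia (log2 fold change 5.12, SE 0.26, edgeR adjusted p = 6.78e-10). Csmd1, a membrane protein that blocks complement activation, was at 20.6 to 65.0 CPM in astrocytes and 0 to 1.73 CPM in microglia, and its relative Csmd2 was at 13.2 to 20.3 and 0 to 2.41 CPM. Vtn, the gene of vitronectin and also a mural marker, was at 117 to 188 CPM in astrocytes and 0 to 8.14 CPM in microglia. These 3 genes passed in the astrocyte direction, with log2 fold changes of 6.94 for Csmd1, 4.61 for Csmd2 and 6.27 for Vtn. Csmd3, another relative of Csmd1, lay the other way, at 98.3 to 176 CPM in microglia and 15.5 to 35.5 CPM in astrocytes. Hc, the mouse gene of C5, had 1.87 to 10.4 CPM in astrocytes and no count in any microglia library. Against a floor of 3 counts in each microglia library its mean was at least 22.8-fold higher in astrocytes. Placing Hc at that bound leaves the list's median as given, since both values lie above it. Cd59b, a copy of the CD59 gene that guards cells against the terminal complex, was at 0.33 to 5.78 CPM in astrocytes and had counts in only 1 microglia library.

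On the microglial side, Itgam and Itgb2 encode the chains of complement receptor 3, which takes up surfaces coated with C3 fragments. Itgam was at 1501 to 2451 CPM in microglia and 19.1 to 57.4 CPM in astrocytes (log2 fold change -5.30, SE 0.29, edgeR adjusted p = 9.45e-10), and Itgb2 at 748 to 797 and 9.60 to 26.3 CPM (-5.25, SE 0.23, edgeR adjusted p = 1.85e-10). C5ar2, the second C5a receptor, was at 56.6 to 126 CPM in microglia and 0.325 to 4.65 CPM in astrocytes (log2 fold change -5.17). Itgax, another α chain that pairs with Itgb2, was at 6.34 to 11.9 CPM in microglia and 0 to 0.791 CPM in astrocytes. Fcna, a ficolin, was at 0.603 to 3.12 CPM in microglia and had counts in only 1 astrocyte library. No count was found in any of the 12 libraries for Mbl2, Cfd, C9 and Cfi, and 11 further genes, among them C6, C7, C8a and C8b of the terminal complex, stayed under 1 CPM in every library.

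**Figure D3:**
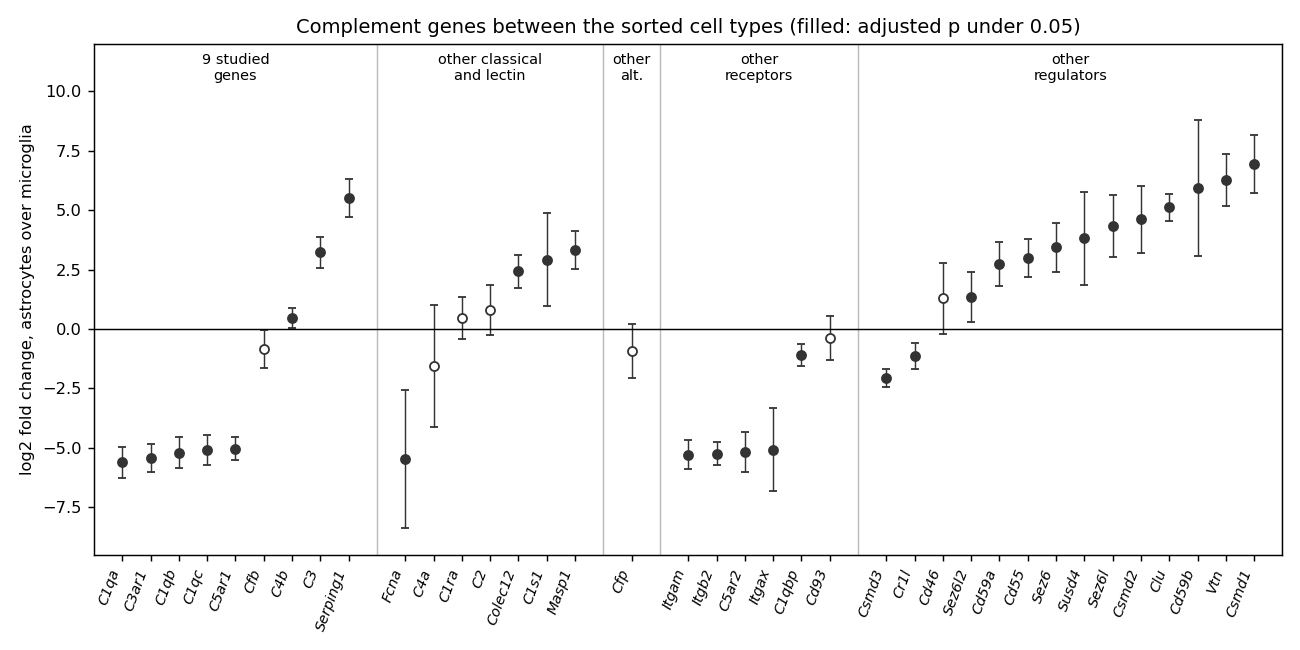
Log2 fold change between astrocytes and microglia (vertical axis; positive is higher in astrocytes) with 95% intervals from edgeR's fit of 12 libraries, for the 9 studied genes and other tested complement genes grouped by role (other alt., other alternative and terminal). Filled points passed an adjusted p of 0.05; Hc, with no microglia count, is left out. Among the other genes, 5 of 6 receptors are filled and below 0, and 11 regulators are filled and above 0.

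The second comparison asked whether the mice labelled KO differed from WT in microglia. None of the 9 genes passed in edgeR's fit, where 0 of 14191 tested genes passed (0%), and DESeq2 and limma voom called none of the 9. Before adjustment 3 of the 9 genes, C3, C3ar1 and C5ar1, had an edgeR p under 0.05, as did 7.42% of all tested genes. The same 3 genes had no overlap of CPM between genotypes (2 higher and 1 lower in KO), against 13.1% of all tested genes (6.53% higher and 6.57% lower). The median log2 fold change over all tested genes was -0.0013.

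C5ar1, from the values above, had all 3 KO libraries above all 3 WT libraries, with means of 229.5 ± 41.7 and 139 ± 30.0 CPM (SD, n = 3). Its log2 fold change was 0.71 (SE 0.21, 95% interval 0.26 to 1.15), with an edgeR p of 0.00449 and an adjusted p of 0.542. C3ar1 had the same order, with means of 431 ± 44.9 CPM for KO and 297 ± 76.7 CPM for WT (SD, n = 3). It had a log2 fold change of 0.52 (SE 0.21, 95% interval 0.07 to 0.96), an edgeR p of 0.0256 and an adjusted p of 0.620. C5ar2, the other C5a receptor, had 56.6, 75.4 and 107 CPM in the WT libraries and 96.7, 119 and 126 CPM in the KO libraries, which overlap. The estimate was 0.50 on the log2 scale, with an edgeR p of 0.0453 and an adjusted p of 0.665. The 3 peptide receptors had positive estimates, and none passed. Marker sums of other myeloid cells overlapped between WT and KO microglia: 7 border macrophage genes summed to 180 to 391 and 242 to 373 CPM, 5 monocyte genes to 6.11 to 13.8 and 3.26 to 6.88 CPM, and 7 neutrophil genes to 2.33 to 26.1 and 5.69 to 10.2 CPM. Taken gene by gene, only 1 of the 7 border macrophage markers had an estimate below 0 (median 0.23, from -0.27 to 0.33 on the log2 scale). All 3 tested monocyte markers and 2 of 3 tested neutrophil markers were below 0. No marker of these lists had an unadjusted edgeR p under 0.05. The part of these cells in the receptor estimates was not tested. Over 14 alternative settings the adjusted p ran from 0.130 to 0.997 for C5ar1 and from 0.377 to 0.999 for C3ar1.

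C3 lay the other way. All 3 KO libraries (10.5, 11.7 and 19.9 CPM) were below all 3 WT libraries (24.0, 28.9 and 28.5 CPM), on 108 to 375 counts each. Its estimate was -0.97 on the log2 scale (SE 0.30, 95% interval -1.61 to -0.33), with an edgeR p of 0.00567, an adjusted p of 0.542 and 0.186 to 0.997 over 14 alternative settings. Clu, one of the other complement genes, had the same order, with 72.6, 73.3 and 147 CPM in the WT libraries and 31.1, 55.8 and 72.1 CPM in the KO libraries. The estimate for Clu was -0.90 on the log2 scale, with an edgeR p of 0.0126 and an adjusted p of 0.587. Both genes are higher in astrocytes than in microglia, and some markers of other cells were also lower in the KO microglia libraries. Summed fibroblast markers ranged over 9.42 to 16.3 CPM for WT and 6.13 to 7.75 CPM for KO, with 1 of the 5 at 0 in all KO libraries, and 4 ependymal markers at 5.81 to 10.3 and 3.10 to 5.27 CPM, each without overlap. Only 2 of the 4 ependymal markers had enough counts to be tested, and their estimates were -1.23 and 0.69 on the log2 scale. Choroid plexus markers were at 880 to 2201 and 355 to 894 CPM and mural markers at 12.2 to 28.1 and 4.36 to 14.4 CPM, both overlapping, and astrocyte markers summed to 332 to 735 and 355 to 383 CPM. Taken gene by gene, all 10 astrocyte markers had estimates below 0 in KO microglia (median -0.70 on the log2 scale), 5 of them with an unadjusted edgeR p under 0.05 and none called. Gfap was at -1.36, S100b at -1.18, Aldh1l1 and Sox9 at -1.12 and Slc1a2 at -0.76, and Sox9 had no overlap. The estimate nearest 0 among the 10 was -0.08, for Slc1a3. All 6 endothelial markers (median -1.21) and all 4 choroid plexus markers (median -1.36) were below 0 too, with Cldn5 at -1.44 and Clic6 at -1.51, both without overlap. The part of these cells in the C3 and Clu values was not tested.

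The C1q chains differed little between genotypes in microglia. The mean of C1qa was 2031 ± 357 CPM for WT and 2325 ± 368 CPM for KO (SD, n = 3), and its estimate on the log2 scale was 0.17 (SE 0.20, edgeR adjusted p = 0.880). C1qb had 0.23 (SE 0.19, edgeR adjusted p = 0.839) and C1qc 0.02 (SE 0.18, edgeR adjusted p = 0.991). Their libraries overlapped. C4b had -0.33 (SE 0.24), Cfb -0.67 (SE 0.40) and Serping1 -0.37 (SE 1.10), with edgeR adjusted p-values of 0.807, 0.758 and 0.958, and the wide error of Serping1 goes with its 2 to 18 counts.

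**Figure D4:**
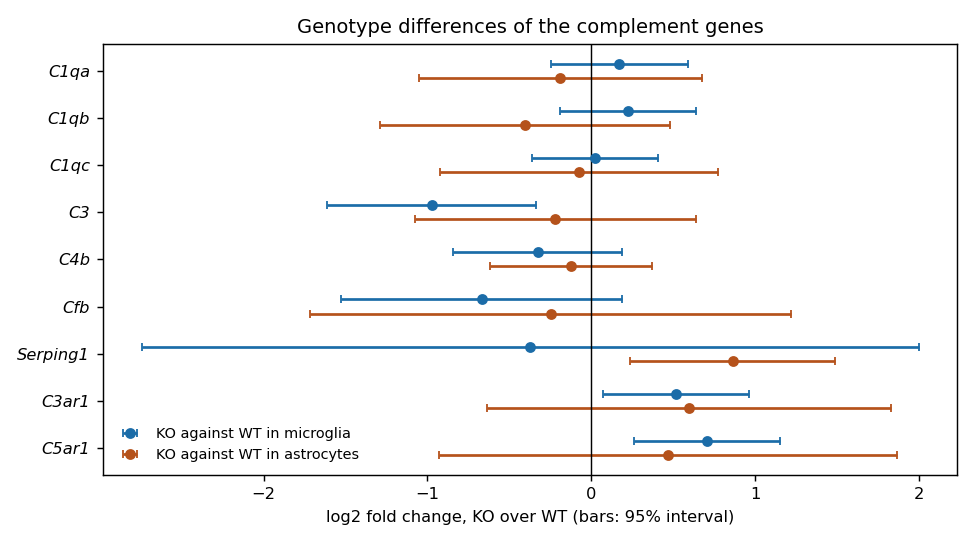
Log2 fold change of KO over WT (horizontal axis) with 95% intervals from edgeR's fits of 6 microglia libraries (blue) and 6 astrocyte libraries (orange). The microglia intervals of C3, C3ar1 and C5ar1 and the astrocyte interval of Serping1 leave out 0 before adjustment over all genes, and none of the 9 genes passed after it.

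Of the 50 other complement genes, 25 were tested between genotypes in microglia and none passed, with 6 estimates above 0 and 19 below and a median log2 fold change of -0.33. Before adjustment 3 had an edgeR p under 0.05: Clu, C5ar2 and Cd55. Cd55, a membrane inhibitor of C3 cleavage, had 3.62, 11.9 and 14.4 CPM in the WT libraries and 2.62, 4.27 and 4.68 CPM in the KO libraries, which overlap. Its log2 fold change was -1.38, with an edgeR p of 0.0220 and an adjusted p of 0.616. Cd55 is another gene that is higher in astrocytes, and the astrocyte, endothelial and choroid plexus markers given for C3 had estimates below 0 in the same libraries. Their part in the Cd55 value and in the 19 estimates below 0 was not tested. Itgam had all KO libraries (1888, 1501 and 2007 CPM) below all WT libraries (2337, 2451 and 2145 CPM), with a log2 fold change of -0.39, an edgeR p of 0.0571 and an adjusted p of 0.690. Its partner chain Itgb2 had an estimate of -0.02.

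In astrocytes, none of the 9 genes passed between genotypes, nor did any of 15755 tested genes (0%) in edgeR's fit, and DESeq2 and limma voom called none of the 9. In CPM per library total, none of the 9 was without overlap between genotypes, against 8.13% of all tested genes (2.39% higher and 5.74% lower in KO). Before adjustment 1 of the 9, Serping1, had an edgeR p under 0.05, as did 2.37% of all tested genes. The mean of Serping1 was 31.4 ± 9.81 CPM for WT and 51.3 ± 8.93 CPM for KO (SD, n = 3), with the highest WT library just above the lowest KO library. Its log2 fold change was 0.86 (SE 0.29, 95% interval 0.24 to 1.49), with an edgeR p of 0.0113 and an adjusted p of 0.999. Fibroblast markers in the same libraries summed to 104 to 113 CPM for WT and 74.3 to 129 CPM for KO. Mural markers summed to 329 to 421 and 315 to 368 CPM, and both sums overlapped. Taken gene by gene, 2 of the 5 fibroblast and 2 of the 5 mural markers had estimates below 0. The medians were 0.05 and 0.02 on the log2 scale, and the fibroblast estimates ran from -0.40 to 2.09. The part of these cells in the Serping1 estimate was not tested.

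The other 8 genes had log2 fold changes between -0.40 for C1qb (SE 0.40) and 0.60 for C3ar1 (SE 0.56), all with an edgeR adjusted p of 0.999. C3 averaged 171 ± 77.9 CPM in WT and 138 ± 94.2 CPM in KO astrocytes (SD, n = 3), which gave -0.22 on the log2 scale (SE 0.39). C4b averaged 351 ± 78.5 and 303 ± 106 CPM, which gave -0.12 (SE 0.23). For C3 the spread among animals of one genotype was larger than the difference between genotypes.

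Of the other complement genes 27 were tested in astrocytes and none passed, with 14 estimates above 0, 13 below, a median of 0.02 and 1 unadjusted edgeR p under 0.05. That gene was C1ra, which encodes the protease C1r, with 10.2, 13.5 and 12.9 CPM in the WT libraries and 5.02, 2.51 and 7.25 CPM in the KO libraries, which do not overlap. Its log2 fold change was -1.23, with an edgeR p of 0.0229 and an adjusted p of 0.999. Csmd3, a relative of Csmd1, also had all KO libraries (18.8, 15.5 and 24.0 CPM) below all WT libraries (35.5, 28.7 and 28.7 CPM), with a log2 fold change of -0.57. Sez6l2, a membrane protein of the same broad group of regulators, had an estimate of -0.89 with an edgeR p of 0.208.

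Whether a genotype difference was unequal in the cell types was tested as an interaction in the fit of 12 libraries. None of the 9 genes passed, nor did any of 17294 tested genes (0%), and none of the 9 had an unadjusted edgeR p under 0.05, against 6.37% of all tested genes. The estimate was 1.29 for Serping1 (SE 0.67, edgeR adjusted p = 0.840) and 0.83 for C3 (SE 0.55, edgeR adjusted p = 0.896) on the log2 scale. DESeq2 and limma voom called none of the 9. For C3 and Serping1, then, a genotype difference that is unequal between the cell types was not shown.

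The genes whose levels over the 12 libraries were most like those of C1qa were Clta, Lcp1 and Cmtm6, each with a Pearson r of 0.998 on log2 CPM among 9961 candidates. For C3 they were Sptan1 (0.987), Aebp1 (0.985) and Elof1 (0.984), and for C4b Mapkbp1 (0.906), Otud7b (0.903) and Fut10 (0.886). These values describe the 12 libraries, which share animals, cell type and depth, and likeness within a cell type was not computed. Lcp1, for instance, had a mean of 686 CPM in microglia and 16.9 CPM in astrocytes. Otud7b, by contrast, had means of 72.1 and 77.1 CPM.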

How the data were processed

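Estimated counts by gene symbol, without normalization, were deposited in 2 tables, 1 for microglia and 1 for astrocytes. The submitters' processing notes name STAR 2.7.10b, RSEM 1.3.3, limma and GRCm39, and no source used here gives the annotation. Per the labels' protocols, RNA was turned into full-length cDNA by a SMART-Seq HT kit, which uses no molecular identifiers, and Nextera libraries were prepared from it. Between 3.44% and 5.27% of values above 0 were not whole (tolerance 0.001), and counts were rounded before testing. All 12 columns were matched to a library by name.

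CPM used the library total. Tests were edgeR's quasi-likelihood test (edgeR 4.0.16, R 4.3.3) with TMM factors, filterByExpr (minimum count 10) and Benjamini-Hochberg adjustment over all tested genes, with a call at an adjusted p under 0.05. Genotypes were compared in the 6 libraries of each cell type, and cell types and the interaction in 1 fit of the unnormalized counts of 12 libraries over 4 groups. The scripts were tested on simulated data. Exon lengths came from GENCODE M21 and promoters from RefSeq, both on GRCm38, so no other coordinates are given. Alternatives were DESeq2 1.42.0, its size factors in edgeR, and limma voom (limma 3.58.1), run throughout with sample quality weights. Other count filters, exclusion of 8 abundant non-coding RNAs and a replicate or animal block were also used. So were all 12 libraries in 1 fit, cell types within a genotype, and each replicate left out.

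The 9 genes and the lists were chosen with earlier results of these data known, and the motif letters after the files were seen. The text names all 9 genes. Of the other complement genes it names up to 6 in each direction between cell types (largest log2 fold change among called genes of at least 1 CPM without overlap) and up to 4 with the smallest p between genotypes in each cell type. A gene that this rule names is not reported here. For likeness it names the 3 highest correlations among genes of at least 10 CPM on average. Masp1, C1s1, Colec12, the genes at or near 0, Csmd3 between cell types and Itgb2 between genotypes were named after their values were seen. Animal numbers in the labels pair the 2 libraries of an animal. Across genes, the correlation of their deviations from group means was 0.00409 to 0.0963. Replicates of a group are separate animals, but amplified reads are not independent molecules.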

Additional observations from a re-analysis of the deposited data

How the results depend on the processing

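For 7 of the 9 genes the difference between cell types passed in all 15 alternatives. C4b lost its call within WT animals (0.31, edgeR adjusted p = 0.371), within KO animals (0.62, adjusted p = 0.0691), without 8 abundant RNAs (0.40, adjusted p = 0.0840) and in 5 of 6 fits that left out an animal, with log2 fold changes of 0.16 to 0.68 over the 6. The count of genes called between cell types was 10266 to 10958 with an animal left out. Between KO and WT microglia the count of 0 became 41 with DESeq2, 121 with no filter, 41 with all 12 libraries in 1 fit and 0 to 2 with a replicate left out. In astrocytes it became 4 with DESeq2, 17 with no filter and 0 to 1 with a replicate left out, and for the interaction 54 with DESeq2, 160 with no filter and 0 to 6 without 1 animal. None of the 9 genes was among these calls. The causes were not tested.

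The replicate number does not pair WT with KO animals in the labels, and same-numbered libraries correlated at 0.0513 to 0.194 in microglia and -0.0222 to 0.231 in astrocytes. With the replicate block, 30 genes were called in microglia and 0 in astrocytes. With the animal as replicate block, 10400 genes were called between cell types and 0 for the interaction, and C4b had a log2 fold change of 0.48 (edgeR adjusted p = 0.0366). The block changed no call of the 9 genes.

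Estimates near 0 turned sign, none of them called. C1qc between KO and WT was -0.0155 in microglia with a minimum count of 50, -0.0750 in the fit of 12 libraries and 0.0021 in astrocytes with the replicate block. Its interaction was -0.0572 with DESeq2, -0.0580 with DESeq2 size factors, -0.18 with no filter, -0.15 with voom and -0.17 without 8 abundant RNAs. With a replicate left out, microglia estimates ran from -0.0277 to 0.0904 for C1qc and -0.72 to 0.11 for Serping1. In astrocytes they ran from -0.58 to 0.16 for C1qa, -0.72 to 0.15 for C1qb, -0.46 to 0.51 for C1qc, -0.85 to 0.13 for C3, -0.292 to 0.0489 for C4b and -0.50 to 0.32 for Cfb. Interactions ran from -0.740 to 0.0327 for C1qa, -0.56 to 0.46 for C1qc, -0.12 to 0.59 for C4b, -0.20 to 1.01 for Cfb, -0.35 to 0.87 for C3ar1 and -0.46 to 0.13 for C5ar1. The filter with a minimum count of 50 left no value for Serping1 in microglia, where depth limits the estimate.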
